A study of Mus musculus with 12 samples.

Results

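The genes described here are 50 cell cycle and DNA replication genes, chosen by symbol, and 48 of them were measured among 19937 genes on the arrays. They cover the cyclins and kinases of G1, S phase and mitosis, the replication machinery, the enzymes of nucleotide supply, the spindle and its checkpoint, and the inhibitors that hold a cell back. A member counted as measured if a probe set named it or its alias alone, and the probe set with the highest mean stood for the gene. Ccnb1 had no such probe set, Cdkn1a shares its probe set with another gene, and both are not analysed here. RNA from 12 samples of CD4+ T cells from mouse Peyer's patches, lymphoid tissue in the wall of the gut, had been hybridised to Affymetrix mouse gene arrays, 3 arrays for each of 4 groups.

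All groups came from IL-21eGFP mice, which carry a fluorescent protein (GFP) that reports on interleukin 21, a cytokine of helper T cells, and all were taken from a gate negative for MHC class II and Epcam. The groups were GFP+ T follicular helper (Tfh) cells and GFP- Tfh cells, both titled CXCR5+PD1+, then GFP- cells that were CXCR5+PD1-, and GFP- cells that were CXCR5-PD1-. CXCR5 is the chemokine receptor that takes T cells into follicles, and PD-1 is a receptor that Tfh cells carry at high density. No treatment is named, and age and strain are not given in the sources used here. The transgene marks cells by reporter fluorescence and not by the endogenous cytokine gene, and Il21 itself read 10.25 to 10.82 in GFP+ Tfh cells, against 9.57 to 10.17 in GFP- Tfh cells. The characteristics of the GFP+ arrays give CXCR5 and PD1 as negative, against their titles and the sorting protocol. Cxcr5 was at 9.14, 8.62 and 9.08 on these 3 arrays, against 5.36 to 6.19 on CXCR5-PD1- arrays, and the groups follow the titles. The sorting protocol does not list a CXCR5+PD1- gate, which is taken from the titles, and Cxcr5 on those arrays was low, at 5.87, 5.78 and 5.19.

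A cell that commits to divide first raises D-type cyclins with Cdk4 and Cdk6, which release E2F factors from the pocket proteins Rb1 and Rbl2. E2F factors then switch on genes for the loading of the Mcm helicase on DNA and for the making of nucleotides, and later the mitotic genes follow under the MuvB complex, with B-Myb and Foxm1. Tfh cells help B cells in germinal centres, which Peyer's patches hold continually in response to gut microbes, and part of the Tfh population is known to divide there.

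Values are log2 expression as the authors deposited them. A difference is the gate named first minus the gate it is set against, given ± SE, and an adjusted p is from limma with Benjamini-Hochberg adjustment over the 11240 genes that passed a filter on low values. Of the 48 members, 35 passed the filter and 13 did not, namely Ccne2, Gins1, Ccna2, Cdk1, Plk1, Ttk, Bub1, Bub1b, Kif20a, Cenpf, Nusap1, Tpx2 and Cdkn2c. A member could pass through the one group in which it was high, so the tested members are not a neutral draw. The labels do not tie replicates to separate animals or cultures, and the p-values measure the spread among these samples, part of which may be technical. A bulk sample with fewer dividing cells cannot be told apart from one with less of these transcripts per cell.

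The arrays differed in ways that bear on these genes. The root mean square deviation of an array from its group mean was 0.287 to 0.405 for GFP+ Tfh arrays and 0.163 to 0.204 for the other 9. Among the members the median SD within a group was 0.31 in GFP+ Tfh cells, 0.18 in GFP- Tfh cells, 0.12 in the CXCR5+PD1- gate and 0.18 in the CXCR5-PD1- gate, and over all genes it was 0.21, 0.14, 0.12 and 0.13 in the same order. Replicate 3 of every group was female and replicates 1 and 2 were male, as Xist and Eif2s3y show, so the replicates of a group did not all come from 1 animal, and whether replicates 1 and 2 did is not given. GFP+ Tfh replicate 3 was the lowest of its 3 arrays for 25 of the 48 members, GFP- Tfh replicate 3 for 28, CXCR5+PD1- replicate 3 for 27 and CXCR5-PD1- replicate 3 for 15. T cell markers were high on all arrays, averaging 3.77 to 4.24 log2 units above the array median, and all 8 Tfh markers were higher in both Tfh gates than in the CXCR5-PD1- gate. Markers of B cells averaged -1.03 to -0.74 against the array median, germinal centre B and plasma cell markers -0.13 to 0.29, myeloid markers -0.34 to 0.09, epithelial markers -0.73 to -0.52, and markers of CD8, NK and gamma delta T cells -0.63 to 0.05.

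Between both Tfh gates and both PD1- gates, 8 members were called, all of them higher in Tfh cells. They were Mcm6, Kif11, Top2a, Mki67, Rbl2, Tyms, Cenpe and Cdk6. The share of all tested genes called higher was 5.05%, or 568 of 11240, and the share called lower was 5.33%. Leaving out 1 array moved the count of members from 3 (without GFP- Tfh replicate 1 or CXCR5+PD1- replicate 2 or 3) to 10 (without GFP+ Tfh replicate 1, when 4 of the 10 were lower, or replicate 3). Over these 12 fits 883 to 1495 of the 11240 tested genes were called in either direction. With no filter on low values, 5 of the 48 members (Mcm6, Kif11, Top2a, Mki67 and Rbl2) and 2.66% of all genes were called higher. Of the 35 tested members 4 (Kif11, Cenpe, Cdc6 and Birc5) exceeded the array median on 0 PD1- arrays and Mki67 on 1, so these 5 passed the filter through the Tfh arrays where they were high. The median difference over all 48 measured members was 0.22, against 0.00 over all 19937 genes, and 14 of the 48 had a negative difference. Mcm6, Top2a and Rbl2 were the 3 members whose 6 Tfh arrays all lay above the 6 PD1- arrays, where 2.11% of all genes did so. With the GFP+ Tfh arrays left out, GFP- Tfh cells over both PD1- gates called 9 members higher and 1 lower, where 5.87% of all genes were called higher and 4.04% lower, and Rrm1, Ccnb2 and Birc5 joined while Cdk6 and Rbl2 dropped out.

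Promoter sequences of the 4 members with the smallest p in this comparison are printed to show which of the sites known from cell cycle promoters their letters hold. They are the 250 bases before the annotated start in RefSeq (GRCm38.p6), 5′ to 3′ on the strand of the gene. Capitals mark the E2F-type letters TTTGGCGC or TTTCGCGC, CCAAT, and the letters TTTGAA of the cell cycle homology region (CHR), each read on both strands. The windows are Mcm6 at chr1:128359706-128359955 (minus strand), Kif11 at chr19:37376132-37376381 (plus strand), Top2a at chr11:99024190-99024439 (minus strand) and Mki67 at chr7:135716380-135716629 (minus strand).
Mcm6: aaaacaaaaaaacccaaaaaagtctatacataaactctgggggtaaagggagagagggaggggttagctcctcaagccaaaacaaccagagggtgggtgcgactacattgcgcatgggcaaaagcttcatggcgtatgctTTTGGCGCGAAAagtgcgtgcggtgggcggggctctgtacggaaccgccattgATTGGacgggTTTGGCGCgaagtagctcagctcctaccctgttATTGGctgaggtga
Kif11: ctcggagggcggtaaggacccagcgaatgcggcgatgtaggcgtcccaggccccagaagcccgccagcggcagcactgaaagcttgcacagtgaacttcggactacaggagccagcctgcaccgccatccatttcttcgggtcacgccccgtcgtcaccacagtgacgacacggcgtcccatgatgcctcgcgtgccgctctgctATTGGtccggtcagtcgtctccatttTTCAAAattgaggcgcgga
Top2a: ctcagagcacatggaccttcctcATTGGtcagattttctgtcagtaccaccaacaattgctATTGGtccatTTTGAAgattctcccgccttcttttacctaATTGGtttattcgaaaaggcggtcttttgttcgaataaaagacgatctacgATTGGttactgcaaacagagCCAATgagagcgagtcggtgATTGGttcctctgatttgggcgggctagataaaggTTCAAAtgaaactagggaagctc
Mki67: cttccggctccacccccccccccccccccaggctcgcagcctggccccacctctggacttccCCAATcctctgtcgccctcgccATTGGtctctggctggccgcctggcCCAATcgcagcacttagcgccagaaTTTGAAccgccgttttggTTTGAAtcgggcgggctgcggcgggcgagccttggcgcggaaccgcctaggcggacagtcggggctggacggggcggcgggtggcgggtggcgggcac

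The Mcm6 window held 3 E2F-type matches, of which those beginning 110 and 106 bases before the start overlap and share the first run of capitals, and the other began 47 bases before it. It also held 2 CCAAT matches, 57 and 14 bases before the start. Kif11 had 1 CHR-type match 19 bases and 1 CCAAT match 45 bases before its start. Top2a had 6 CCAAT and 2 CHR-type matches, and Mki67 had 3 and 2. RefSeq windows were found for 38 of the 48 measured members, 42 windows in all. E2F-type letters were in 3 of these 42, those of Mcm5, Mcm6 and Cdk1, against 0.654% of the 32851 windows of all genes. CCAAT was in 28 of 42 (66.7%), against 33.8% of all windows, and TTTGAA in 9 of 42 (21.4%), against 16%. These matches describe letters and no binding was measured.

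The factors that start S phase and license origins did not move as a group. Of 7 members, 0 were called in any of the 5 comparisons by limma, and in the pooled comparison 1 of the 6 tested, Cdc6, was higher at an unadjusted p under 0.05, where 9.95% of all tested genes were. Cdc6 loads the Mcm helicase at origins. It was at 6.05, 6.57 and 6.69 in GFP+ Tfh cells, 6.65, 5.86 and 6.21 in GFP- Tfh cells, 6.05, 5.97 and 5.88 in the CXCR5+PD1- gate, and 5.81, 5.88 and 5.87 in the CXCR5-PD1- gate. The Tfh arrays overlapped the PD1- arrays, and the pooled difference was 0.43 ± 0.14 (limma adjusted p = 0.0849). It was called without GFP+ Tfh replicate 1 (0.52, adjusted p = 0.0205) and without GFP- Tfh replicate 2 (0.52, adjusted p = 0.0354). No PD1- array of Cdc6 exceeded its array median, so Cdc6 was tested through its Tfh arrays alone. These 2 fits kept that filter and each dropped a low Tfh array, so the calls are no separate support.

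Cdk2, the kinase of cyclins E and A, had a pooled difference of -0.16 ± 0.13 (95% interval -0.45 to 0.12). It was at 6.97, 6.79 and 6.92 in GFP+ Tfh cells and 6.86, 6.65 and 6.87 in GFP- Tfh cells, against 7.37, 7.01 and 6.76 in the CXCR5+PD1- gate and 7.31, 6.64 and 6.95 in the CXCR5-PD1- gate. E2f1 and E2f2, the activating E2F factors, differed by 0.00 ± 0.08 and -0.07 ± 0.11, and Cdt1, the other licensing factor, by -0.10 ± 0.11. Cyclin E1 (Ccne1) differed by -0.15 ± 0.15. All 4 ranges of these genes overlapped between Tfh and PD1- arrays.

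Mcm6 separated the Tfh arrays from all others. It encodes a subunit of the hexameric Mcm2-7 helicase that unwinds DNA at the fork. Its log2 level was 9.29, 9.07 and 8.37 in GFP+ Tfh cells and 8.74, 8.60 and 8.37 in GFP- Tfh cells, against 7.96, 7.37 and 7.84 in the CXCR5+PD1- gate and 7.76, 7.44 and 7.35 in the CXCR5-PD1- gate. The lowest Tfh array was above the highest PD1- array, in 6 of 6 Tfh arrays. The pooled difference was 1.12 ± 0.17, a 2.17-fold higher level (limma adjusted p = 0.00105), and the call held in all 12 fits that left out 1 array. Within replicate numbers the pooled difference was 1.15 and 1.43 on the male arrays and 0.77 on the female ones.

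Mcm6 was also higher in each Tfh gate set against CXCR5-PD1- cells alone. The difference was 1.39 ± 0.23 for GFP+ Tfh cells (adjusted p = 0.00437 in limma), called in all 6 fits that left out 1 array. For GFP- Tfh cells it was 1.05 ± 0.23 (limma adjusted p = 0.0287), and the call was lost without GFP- Tfh replicate 1 or 2 or CXCR5-PD1- replicate 2 or 3 (adjusted p = 0.114, 0.108, 0.105 and 0.122). These comparisons share the CXCR5-PD1- arrays.

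The other 5 subunits of the same helicase were not called in any of the 5 comparisons. In the pooled comparison Mcm2 differed by 0.15 ± 0.11, Mcm3 by 0.15 ± 0.14, Mcm5 by 0.23 ± 0.11, Mcm7 by -0.14 ± 0.12 and Mcm4 by -0.40 ± 0.15. Mcm4 was at 8.25, 7.31 and 7.40 in GFP+ Tfh cells and 8.03, 8.23 and 7.95 in GFP- Tfh cells, against 8.19, 8.19 and 8.35 in the CXCR5+PD1- gate and 8.27, 8.16 and 8.44 in the CXCR5-PD1- gate. Replicates 2 and 3 of GFP+ Tfh cells were low and replicate 1 was level with the PD1- arrays. Without GFP+ Tfh replicate 1, Mcm4 was called lower in the pooled comparison (-0.55, limma adjusted p = 0.00205), in GFP+ Tfh over CXCR5-PD1- (-0.94, adjusted p = 0.0018) and in GFP+ over GFP- Tfh (-0.72, adjusted p = 0.0306). These fits dropped the highest Tfh array of Mcm4, so the calls are no separate support.

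Pcna, the sliding clamp of the replicative polymerases, differed by -0.22 ± 0.10 in the pooled comparison (limma adjusted p = 0.252). Its other probe set, not used for the gene, differed by -0.09. Gins2, of the GINS complex that activates the helicase, differed by 0.01 ± 0.11. Gins1 did not pass the filter and read 5.07 to 5.49 in GFP+ Tfh cells and 4.58 to 5.76 in GFP- Tfh cells, against 4.47 to 4.71 in the CXCR5+PD1- gate and 4.86 to 4.89 in the CXCR5-PD1- gate, so that the GFP- Tfh arrays overlapped both PD1- gates.

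Of the enzymes of nucleotide supply, Tyms was called and the 2 subunits of ribonucleotide reductase varied between arrays. Tyms, which makes thymidylate, was at 8.54, 7.87 and 7.54 in GFP+ Tfh cells and 8.11, 7.88 and 7.95 in GFP- Tfh cells, against 7.46, 7.40 and 7.04 in the CXCR5+PD1- gate and 7.65, 7.68 and 7.25 in the CXCR5-PD1- gate. Only GFP+ Tfh replicate 3 fell inside the range of the PD1- arrays. Across both Tfh gates the difference was 0.57 ± 0.16 (limma adjusted p = 0.0464). It was called in 2 of the 12 fits that left out 1 array, those without GFP+ Tfh replicate 1 or 3, and the adjusted p over the 12 ran from 0.00814 to 0.118.

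Rrm1, the large subunit of ribonucleotide reductase, was at 8.14, 7.98 and 6.50 in GFP+ Tfh cells and 8.33, 8.58 and 8.43 in GFP- Tfh cells, against 7.71, 7.15 and 7.81 in the CXCR5+PD1- gate and 7.55, 7.56 and 8.0 in the CXCR5-PD1- gate. All 3 GFP- Tfh arrays were above all 6 PD1- arrays, and GFP+ Tfh replicate 3 was below them. The pooled difference was 0.36 ± 0.25 (limma adjusted p = 0.493). It was 0.62 without GFP+ Tfh replicate 3 (adjusted p = 0.0104) and 0.82 ± 0.16 with all GFP+ Tfh arrays left out (adjusted p = 0.00893). Both fits dropped the lowest Tfh array, so their calls are no separate support.

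Rrm2, the small subunit, was at 8.34, 7.77 and 6.61 in GFP+ Tfh cells and 6.97, 7.26 and 6.93 in GFP- Tfh cells, against 6.92, 6.58 and 6.89 in the CXCR5+PD1- gate and 6.96, 7.08 and 6.77 in the CXCR5-PD1- gate. It was high on GFP+ Tfh replicates 1 and 2 and low on replicate 3, and the GFP- Tfh arrays overlapped the PD1- arrays. Pooled over gates, the difference was 0.45 ± 0.23 (limma adjusted p = 0.313), and 0.69 without GFP+ Tfh replicate 3 (adjusted p = 0.00391). The second fit dropped the lowest Tfh array, so its call is no separate support. Tk1, the thymidine salvage kinase, differed by -0.20 ± 0.16.

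**Figure D1:**
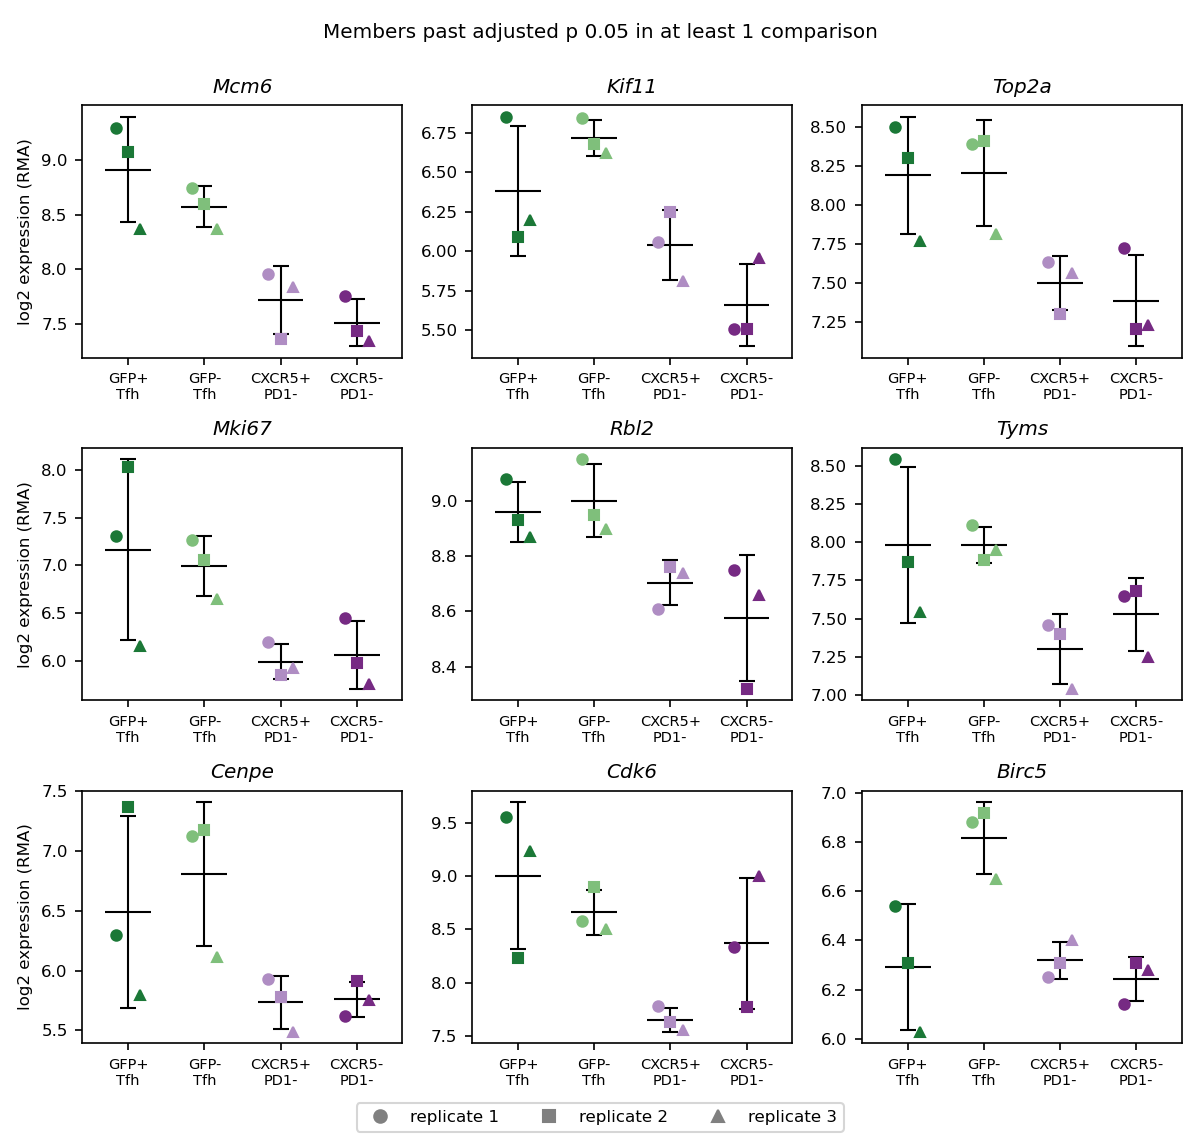
Log2 expression of the 9 members called in at least 1 comparison, 1 panel per gene with its own vertical range. Columns are the 4 gates, points are arrays with 1 shape per replicate number, and bars are the mean ± SD of 3 arrays. Mcm6 runs from 8.37 to 9.29 in Tfh arrays and does not exceed 7.96 in PD1- arrays, while Mki67 and Cenpe on GFP+ Tfh replicate 3 lie at 6.15 and 5.80, inside the PD1- range.

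Of the mitotic cyclins and their partners, 4 were measured and 2 tested, Ccnb2 and Cdc20. Of these, 0 were called in any of the 5 comparisons by limma. In the pooled comparison 5.05% of all tested genes were called higher and 5.33% lower, so 0 of 2 says little about the group. Ccnb2 had an unadjusted p under 0.05 in 3 of the 5 comparisons. Ccnb2, cyclin B2, was at 6.45, 6.70 and 6.68 in GFP+ Tfh cells and 7.28, 7.41 and 6.86 in GFP- Tfh cells, against 6.62, 6.48 and 6.46 in the CXCR5+PD1- gate and 6.81, 6.38 and 6.68 in the CXCR5-PD1- gate. All GFP- Tfh arrays were above every other array. The difference was 0.56 ± 0.16 for GFP- Tfh over CXCR5-PD1- (limma adjusted p = 0.0880) and -0.01 ± 0.16 for GFP+ Tfh over CXCR5-PD1-. With the GFP+ Tfh arrays left out, GFP- Tfh over both PD1- gates was 0.61 ± 0.14 (adjusted p = 0.0174). Cdc20, the activator of the anaphase promoting complex, was at 7.11, 6.68 and 6.71 in GFP+ Tfh cells and 6.73, 6.88 and 6.70 in GFP- Tfh cells, against 6.51, 6.65 and 6.69 in the CXCR5+PD1- gate and 6.63, 6.98 and 6.75 in the CXCR5-PD1- gate. The gates overlapped, and the pooled difference was 0.10 ± 0.10. Cdk1 and Ccna2, the mitotic kinase and cyclin A2, lay below the filter with pooled differences of 0.24 and 0.21.

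Birc5 was the 1 called gene among the mitotic kinases and checkpoint genes, in 1 comparison, and only with the filter on low values. It encodes survivin, a subunit of the chromosomal passenger complex. It was at 6.88, 6.92 and 6.65 in GFP- Tfh cells, against 6.14, 6.31 and 6.28 in the CXCR5-PD1- gate, with no overlap. The difference was 0.57 ± 0.14 (limma adjusted p = 0.0460, and 0.0523 with no filter). No PD1- array of Birc5 exceeded its array median, so it was tested through its Tfh arrays alone. The call was lost in each of the 6 fits that left out 1 of these arrays, with adjusted p from 0.0508 without GFP- Tfh replicate 3 to 0.178 without GFP- Tfh replicate 2. GFP+ Tfh arrays read 6.54, 6.31 and 6.03 and CXCR5+PD1- arrays 6.25, 6.31 and 6.40, which overlap.

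Aurka and Aurkb, the aurora kinases of spindle poles and centromeres, differed by 0.00 ± 0.13 and 0.11 ± 0.08 in the pooled comparison. The checkpoint kinases Bub1, Bub1b and Ttk and the mitotic kinase Plk1 lay below the filter. Their pooled differences were 0.54, 0.33, 0.15 and 0.22, all positive and none tested. Bub1 was at 5.46, 5.0 and 4.41 in GFP+ Tfh cells and 5.21, 5.05 and 4.58 in GFP- Tfh cells, against 4.06, 4.95 and 4.63 in the CXCR5+PD1- gate and 4.22, 4.35 and 4.29 in the CXCR5-PD1- gate. Signals at this height are compressed on the arrays, and differences there can be understated.

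Genes of spindle motors, kinetochores and mitotic chromosomes held 4 of the 8 calls of the pooled comparison. They came from 5 of 9 members that were tested, where 5.05% of all tested genes were called higher. With no filter 3 of the 9 were called, Cenpe dropping out, where 2.66% of all genes were called higher. Kif11 and Cenpe passed the filter through Tfh arrays alone, and Mki67 exceeded the array median on 1 PD1- array. The share called among the tested genes was thus partly set by the filter. Kif11, the motor that pushes spindle poles apart, was at 6.85, 6.09 and 6.20 in GFP+ Tfh cells and 6.84, 6.68 and 6.62 in GFP- Tfh cells, against 6.06, 6.25 and 5.81 in the CXCR5+PD1- gate and 5.51, 5.51 and 5.96 in the CXCR5-PD1- gate. GFP- Tfh arrays were above all PD1- arrays, and GFP+ Tfh replicates 2 and 3 overlapped the CXCR5+PD1- arrays. The pooled difference was 0.69 ± 0.15, a 1.62-fold higher level (limma adjusted p = 0.00924), and it was called in all 12 fits that left out 1 array. These fits kept the filter that Kif11 passed through Tfh arrays alone, so they are no separate support. GFP- Tfh over CXCR5-PD1- gave 1.05 ± 0.21 (adjusted p = 0.0138), lost without GFP- Tfh replicate 1 or 2 (adjusted p = 0.0644 and 0.0524) or CXCR5-PD1- replicate 1 or 2 (0.0616 and 0.0656).

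Top2a, the topoisomerase that untangles sister chromatids, was at 8.50, 8.30 and 7.77 in GFP+ Tfh cells and 8.39, 8.41 and 7.81 in GFP- Tfh cells, against 7.63, 7.30 and 7.56 in the CXCR5+PD1- gate and 7.72, 7.20 and 7.23 in the CXCR5-PD1- gate. All 6 Tfh arrays were above all 6 PD1- arrays. Across both Tfh gates the difference was 0.76 ± 0.16, a 1.69-fold higher level (limma adjusted p = 0.00968), called in all 12 fits that left out 1 array. Its other probe set differed by 0.31 in the same direction. Replicate 3 of both Tfh gates was the lowest, and the pooled difference within replicate numbers was 0.77 and 1.10 on the male arrays and 0.40 on the female ones.

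Mki67 encodes Ki-67, the coat protein of mitotic chromosomes that is widely used as a mark of dividing cells. It was at 7.31, 8.03 and 6.15 in GFP+ Tfh cells and 7.27, 7.06 and 6.65 in GFP- Tfh cells, against 6.20, 5.85 and 5.92 in the CXCR5+PD1- gate and 6.45, 5.98 and 5.75 in the CXCR5-PD1- gate. Of the 6 Tfh arrays, 5 were above all PD1- arrays, and GFP+ Tfh replicate 3 lay within the PD1- range. The pooled difference was 1.05 ± 0.27, a 2.08-fold higher level (limma adjusted p = 0.0255). It was lost in 6 of the 12 fits that left out 1 array, those without GFP- Tfh replicate 1 or 2 or without replicate 2 or 3 of either PD1- gate, with adjusted p up to 0.0679. With all GFP+ Tfh arrays left out it was 0.97 ± 0.18 (adjusted p = 0.00587).

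Cenpe, the kinetochore motor that carries chromosomes to the spindle equator, was at 6.30, 7.37 and 5.80 in GFP+ Tfh cells and 7.13, 7.18 and 6.11 in GFP- Tfh cells, against 5.93, 5.78 and 5.49 in the CXCR5+PD1- gate and 5.62, 5.91 and 5.75 in the CXCR5-PD1- gate. Replicate 3 was the lowest array of both Tfh gates, and in GFP+ Tfh cells it lay among the PD1- arrays. Pooled over gates, the difference was 0.90 ± 0.26 (limma adjusted p = 0.0473, and 0.0705 with no filter). It was called in 2 of the 12 fits that left out 1 array, without replicate 3 of GFP+ Tfh or of GFP- Tfh, and the adjusted p over the 12 ran from 0.00923 to 0.117. Those 2 fits kept the filter that Cenpe passed through Tfh arrays alone. Each also dropped the lowest array of its gate, so the calls are no separate support.

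Kif23, the motor of the central spindle in cytokinesis, was the 1 member of its group with a negative pooled difference, -0.32 ± 0.18 (limma adjusted p = 0.368). Without GFP+ Tfh replicate 1, which read 7.08 against 6.18 and 6.05 on the other GFP+ Tfh arrays, it was called lower (-0.48, adjusted p = 0.0401). That fit dropped the highest Tfh array of Kif23, so the call is no separate support. The 4 members below the filter, Tpx2, Kif20a, Cenpf and Nusap1, had pooled differences of 0.22 to 0.44.

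**Figure D2:**
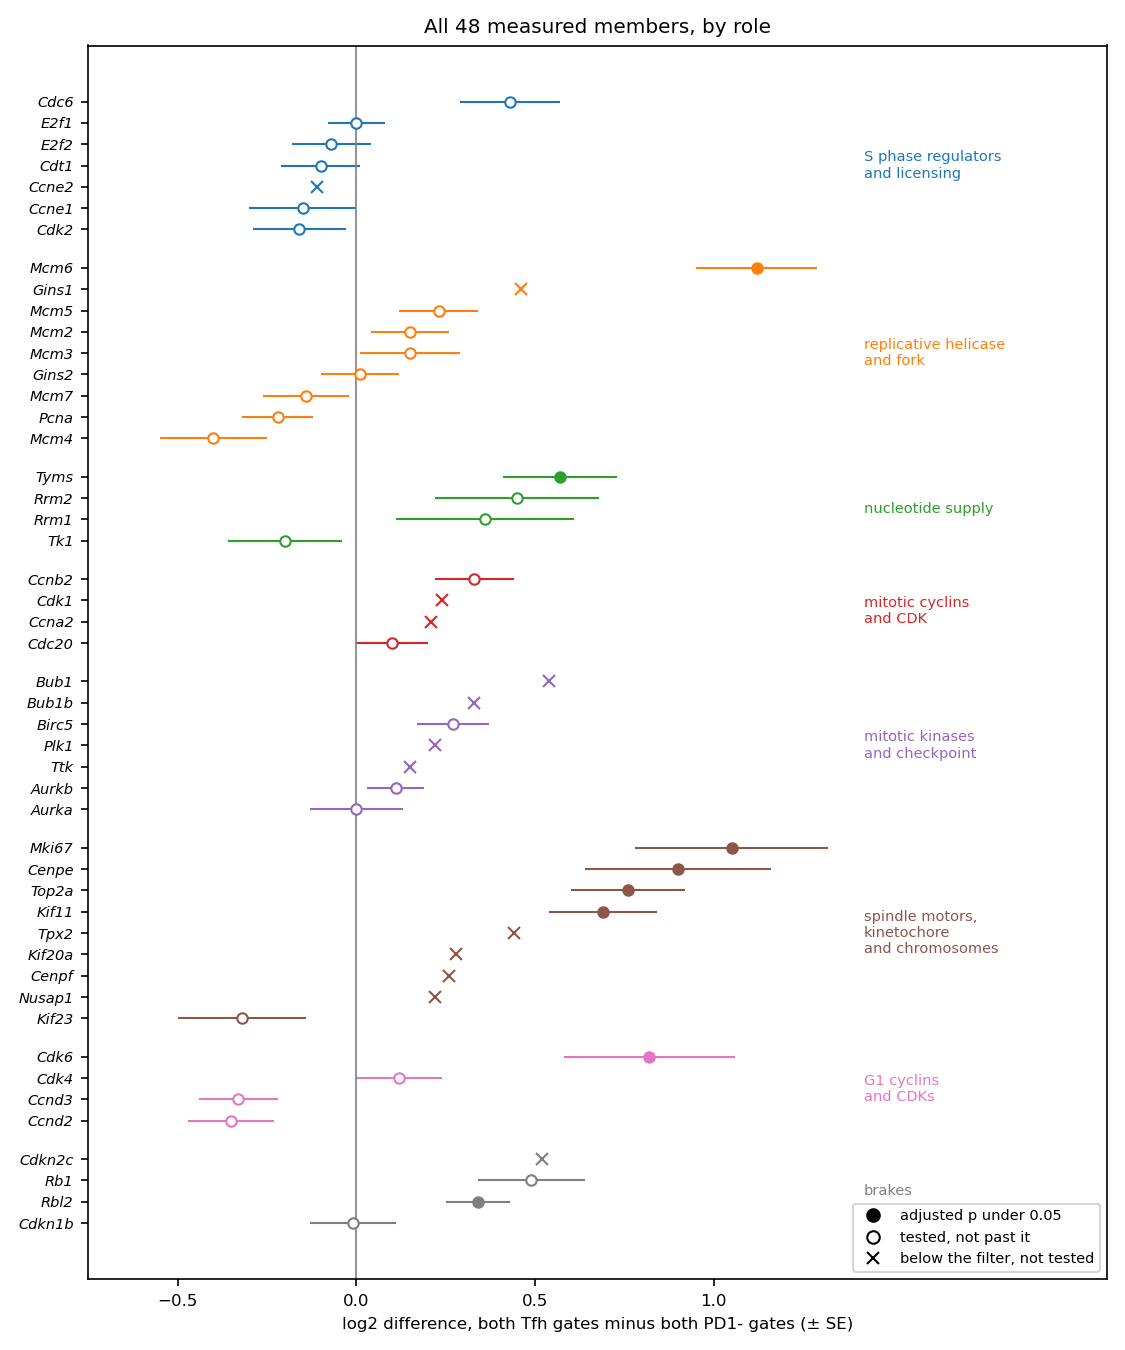
Pooled log2 difference (horizontal axis, both Tfh gates minus both PD1- gates) of all 48 measured members, grouped by role. Bars are ± SE, filled points passed adjusted p 0.05, open points were tested and did not, and crosses lay below the filter. Mcm6, Mki67 and Cenpe lie at 1.12, 1.05 and 0.90, and Mcm4, of the same helicase as Mcm6, lies at -0.40.

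The G1 genes moved in both directions. Cdk6, a kinase partner of D-type cyclins, was at 9.55, 8.23 and 9.23 in GFP+ Tfh cells and 8.58, 8.90 and 8.50 in GFP- Tfh cells, against 7.78, 7.63 and 7.56 in the CXCR5+PD1- gate and 8.34, 7.77 and 9.0 in the CXCR5-PD1- gate. All Tfh arrays were above the CXCR5+PD1- arrays, while CXCR5-PD1- replicates 1 and 3 lay among the Tfh arrays. The pooled difference was 0.82 ± 0.24 (limma adjusted p = 0.0499). The call held in 2 of the 12 fits that left out 1 array, without GFP+ Tfh replicate 2 or CXCR5-PD1- replicate 3, with adjusted p from 0.00689 to 0.119, and was lost with the GFP+ Tfh arrays left out (0.65 ± 0.22, adjusted p = 0.106).

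The D-type cyclins had negative pooled differences that did not pass. Ccnd2 differed by -0.35 ± 0.12 (limma adjusted p = 0.0887) and Ccnd3 by -0.33 ± 0.11 (adjusted p = 0.0929). Ccnd2 was at 10.48, 10.32 and 9.80 in GFP+ Tfh cells and 10.34, 10.07 and 10.07 in GFP- Tfh cells, against 10.64, 10.53 and 10.45 in the CXCR5+PD1- gate and 10.58, 10.46 and 10.50 in the CXCR5-PD1- gate. Only GFP+ Tfh replicate 1 reached the PD1- range. Without it Ccnd2 was called lower (-0.42, adjusted p = 0.0275) and so was Ccnd3 (-0.38, adjusted p = 0.0487). Ccnd2 was also called lower with all GFP+ Tfh arrays left out (-0.36 ± 0.09, adjusted p = 0.0354), and Ccnd3 without CXCR5-PD1- replicate 2 (-0.41, adjusted p = 0.0266). Each fit that left out 1 array dropped the one furthest in its gate against the difference, so those calls are no separate support. Cdk4, the other G1 kinase, differed by 0.12 ± 0.12.

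Of the brakes, the pocket protein gene Rbl2 was higher in Tfh cells. Rbl2 encodes p130, which represses cell cycle genes in resting cells. It was at 9.08, 8.93 and 8.87 in GFP+ Tfh cells and 9.15, 8.95 and 8.90 in GFP- Tfh cells, against 8.61, 8.76 and 8.74 in the CXCR5+PD1- gate and 8.75, 8.32 and 8.66 in the CXCR5-PD1- gate. All 6 Tfh arrays were above all PD1- arrays, and the difference was small, 0.34 ± 0.09 or 1.26-fold (limma adjusted p = 0.0418). It was called in 2 of the 12 fits that left out 1 array, those without GFP+ Tfh replicate 3 or CXCR5-PD1- replicate 1, with adjusted p up to 0.109.

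Rb1, the founding pocket protein, differed by 0.49 ± 0.15 (limma adjusted p = 0.0712) and was called without GFP+ Tfh replicate 2 (0.61, adjusted p = 0.0106). That fit dropped the lowest Tfh array of Rb1, so the call is no separate support. Cdkn1b, the inhibitor p27, differed by -0.01 ± 0.12 (95% interval -0.26 to 0.24), and its other probe set by -0.22. Cdkn2c, the inhibitor p18, lay below the filter and read 5.71 to 7.01 in GFP+ Tfh cells and 5.88 to 6.92 in GFP- Tfh cells, against 5.14 to 6.05 in the CXCR5+PD1- gate and 5.81 to 6.19 in the CXCR5-PD1- gate.

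Setting each Tfh gate against CXCR5-PD1- cells alone gave fewer calls. GFP- Tfh over CXCR5-PD1- called 3 members higher, Kif11, Mcm6 and Birc5, where 2.22% of all tested genes were called higher and 1.6% lower, and the median over all 48 members was 0.22, against -0.01 over all genes. The 3 arrays of each gate did not overlap for 18 members, 16 higher and 2 lower, while 8.1% of all genes were higher and 7.99% lower without overlap. Of the 9 spindle and chromosome genes, 6 were among the 16. Leaving out 1 array gave 0 called members without GFP- Tfh replicate 1 or 2 or CXCR5-PD1- replicate 2, 1 without CXCR5-PD1- replicate 1 or 3, and 4 without GFP- Tfh replicate 3.

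GFP+ Tfh over CXCR5-PD1- called 1 member, Mcm6, where 2.45% of tested genes were called higher and 3.75% lower. The median over the 48 members was 0.12, against 0.04 over all genes, and 9 members did not overlap, all higher, where 7.86% of all genes did so. Without GFP+ Tfh replicate 1, which was the highest GFP+ Tfh array for 33 of the 48 members, 4 members were called, Cdc6 and Mcm6 higher and Mcm4 and Kif23 lower. Without GFP+ Tfh replicate 3, 4 were called higher, Mcm6, Rrm2, Top2a and Mki67. Without GFP+ Tfh replicate 2, Kif11 and Rb1 joined Mcm6, and without CXCR5-PD1- replicate 1, Top2a did. Over the 6 fits that left out 1 array, 348 to 1147 of all tested genes were called in either direction. The number for each single fit is not given here, so these counts of members are no result about the members.

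Between the Tfh gates themselves, GFP+ over GFP- Tfh, 0 members were called by limma, where 5 of 11240 genes (0.0445%) were, all lower. At an unadjusted p under 0.05 there were 5 members, Birc5, Ccnb2, Tk1, Rrm1 and Mcm7, all with negative differences, and 5.46% of tested genes were lower at that level. Birc5 differed by -0.52 ± 0.14, Ccnb2 by -0.57 ± 0.16 (limma adjusted p = 0.416 for both), Tk1 by -0.63 ± 0.23 (adjusted p = 0.569), Rrm1 by -0.91 ± 0.36 (0.597) and Mcm7 by -0.37 ± 0.17 (0.668). Birc5, Ccnb2 and Rrm1 were the 3 of 48 members whose arrays did not overlap, all lower in GFP+ Tfh cells, where 3.69% of all genes did so. Of 8 regulatory T cell markers, 5 (Foxp3, Il2ra, Itgae, Il10 and Capg) also lay lower in GFP+ Tfh cells without overlap, Il2ra alone being called. The median of that list was -0.77, and it averaged -0.40 to -0.09 on GFP+ Tfh arrays and 0.50 to 0.61 on GFP- Tfh arrays against the mean of the CXCR5-PD1- arrays. Their part in the members' differences was not tested. The median over the 48 was -0.03, against 0.03 over all genes, and 27 of the 48 were negative. Without GFP+ Tfh replicate 1, Mcm4 and Birc5 were called lower (-0.72 and -0.65), when 237 genes passed in all. Replicate 1 was the highest GFP+ Tfh array of both genes, so these calls are no separate support.

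CXCR5+PD1- over CXCR5-PD1- called 0 members and 0 genes by limma. At an unadjusted p under 0.05 there were 0 members and 137 genes (1.22%). The median over the members was 0.00, against 0.02 over all genes, and the arrays did not overlap for 4 members, 2 higher and 2 lower, where 9.4% of all genes did so. Cdk6 differed by -0.71 with an adjusted p of 1.0 in limma, CXCR5-PD1- replicate 3 being high.

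Averaged by role, spindle and chromosome genes were higher on all 6 Tfh arrays than on any PD1- array. They include the 4 genes of this role called in the pooled comparison, so the average is no separate support. Set against the mean of the CXCR5-PD1- arrays, these 9 genes averaged 0.15 to 0.64 on GFP+ Tfh arrays and 0.35 to 0.69 on GFP- Tfh arrays, against -0.04 to 0.10 on CXCR5+PD1- arrays and -0.04 to 0.07 on CXCR5-PD1- arrays. The S phase regulators averaged -0.04 to 0.07 on GFP+ Tfh arrays and -0.12 to 0.14 on GFP- Tfh arrays, against 0.00 to 0.07 on CXCR5+PD1- arrays and -0.06 to 0.07 on CXCR5-PD1- arrays, and so overlapped. The nucleotide genes spanned -0.57 to 0.56 on GFP+ Tfh arrays and 0.26 to 0.50 on GFP- Tfh arrays, against -0.17 to 0.11 on PD1- arrays. GFP- Tfh arrays were also above all PD1- arrays for mitotic cyclins (0.13 to 0.44, against -0.09 to 0.02). The same held for mitotic kinases (0.17 to 0.42, against -0.07 to 0.14) and brakes (0.14 to 0.44, against -0.23 to 0.12). On GFP+ Tfh arrays these groups ran from 0.02 to 0.17, 0.06 to 0.47 and -0.01 to 0.55. Over all 48 members the GFP+ Tfh arrays ran from -0.01 to 0.39 and the GFP- Tfh arrays from 0.12 to 0.36, against -0.06 to 0.03 in CXCR5+PD1- cells. Other mitosis genes, a list chosen by function, averaged -0.06 to 0.28 on GFP+ Tfh arrays and 0.11 to 0.32 on GFP- Tfh arrays. On CXCR5+PD1- arrays they averaged 0.03 to 0.04, so not all Tfh arrays lay above. T cell markers were also higher on GFP- Tfh arrays (0.16 to 0.18) than on any PD1- array (-0.11 to 0.10). A higher average on GFP- Tfh arrays was thus not particular to cell cycle genes.

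**Figure D3:**
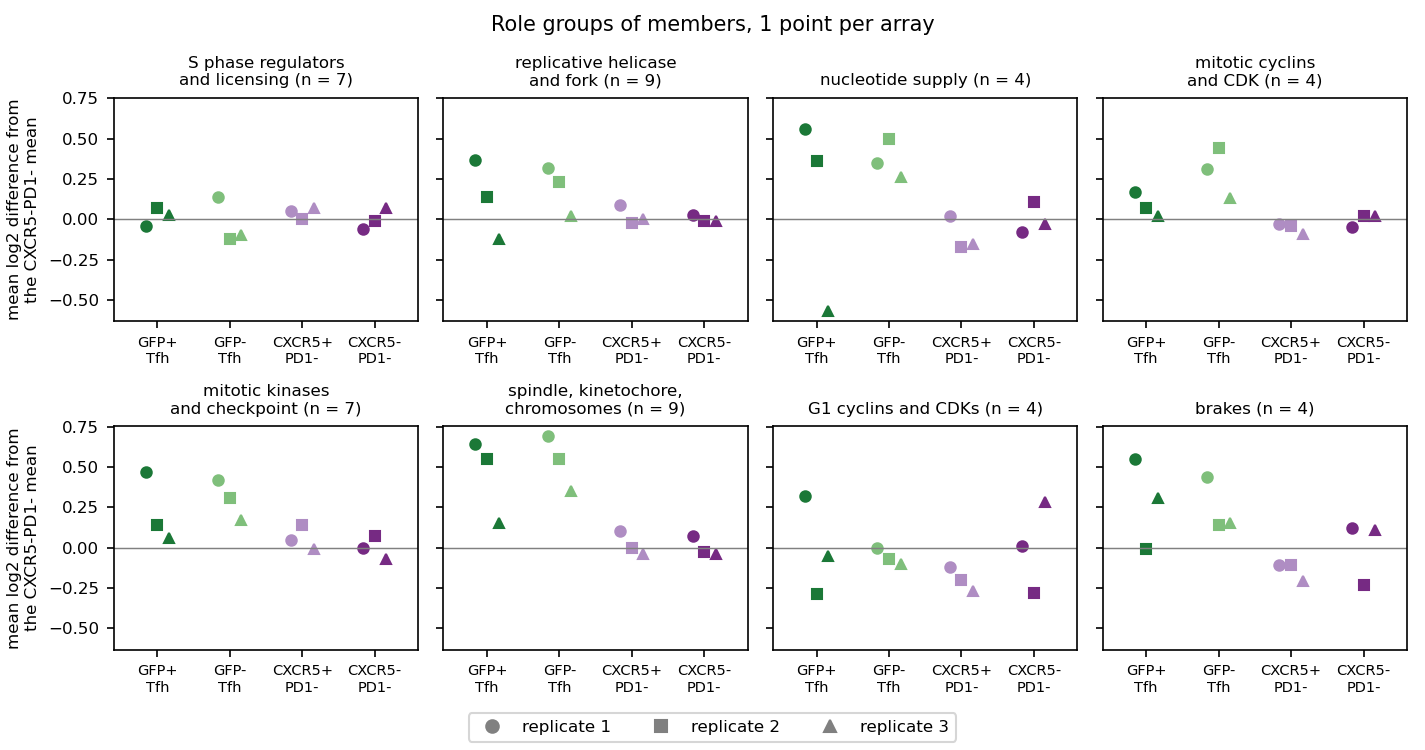
Mean log2 difference of each role group's measured members from the CXCR5-PD1- group mean (vertical axis), 1 point per array, in the 4 gates. Shapes are replicate numbers and n is the number of members. Spindle and chromosome genes lie at 0.15 to 0.69 on all 6 Tfh arrays, and nucleotide supply on GFP+ Tfh replicate 3 lies at -0.57.

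Female and male arrays were compared for the pooled difference. By limma 0 genes and 0 members passed the threshold for a difference of differences. At an unadjusted p under 0.05 there were 6 of 35 members, all with a negative female minus male value. In either direction 15.2% of tested genes reached that level, a similar share, and the share of negative ones is not given here. The count is thus no result about the members. Of these members, Rrm1 had the lowest p, with a pooled difference of -0.44 on female arrays and 0.76 on male arrays, a female minus male value of -1.20 (adjusted p = 0.305). Cdkn1b (-0.29 on female arrays and 0.13 on male arrays) and Gins2 (-0.27 and 0.15) also had opposite signs, Cenpe (0.33 and 1.19) and Top2a (0.40 and 0.94) were positive on both, and Birc5 was at 0.00 and 0.41. Each gate has 1 female array, so sex cannot be told apart from that array.

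Markers of other cell types were read beside these results. The B cell list had 4 of its 11 measured genes past the filter, and its summed linear signal was 516 to 639 on GFP+ Tfh arrays and 526 to 602 on GFP- Tfh arrays, against 550 to 570 and 490 to 579 in the PD1- gates. Its pooled differences were positive for 5 genes and negative for 6, with a median of -0.01. Cd79a and Ms4a1 lay below the filter, and Pax5 was called higher in the pooled comparison (0.30 ± 0.07, limma adjusted p = 0.0193), at 6.55 to 6.59 on GFP+ Tfh arrays and 6.29 to 6.42 on GFP- Tfh arrays, and lost without CXCR5-PD1- replicate 1 or 3 or CXCR5+PD1- replicate 2 or 3 (adjusted p up to 0.056). Germinal centre B and plasma cell markers summed to 1134 to 1919 and 1191 to 1530 in the Tfh gates, against 1169 to 1370 and 1179 to 1395, with 0 of 6 tested called. Myeloid markers summed to 1104 to 1846 and 1312 to 1573, against 1134 to 1464 and 1116 to 1561, with 0 of 6 tested called. Between GFP+ and GFP- Tfh cells 8 of these were positive and 4 negative. The largest was Lyz2, at 6.27 to 7.64 against 5.56 to 5.83 (1.38 ± 0.38, limma adjusted p = 0.416). Of the regulatory T cell list, Ikzf2 and Ctla4 were higher and Foxp3 and Il2ra lower in the pooled comparison, and Il2ra was lower in GFP+ than in GFP- Tfh cells by -2.72 ± 0.28 (adjusted p = 0.00451). The list of CD8, NK and gamma delta T cell markers had negative pooled differences for 9 of 9 measured genes, and of its 6 tested genes Prf1 and Cd8b1 were called lower (-0.62 ± 0.12 and -0.46 ± 0.13, limma adjusted p = 0.00535 and 0.0478), the call of Cd8b1 holding in 4 of the 12 fits that left out 1 array. The part of these cells in the members' levels was not tested.

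Other genes of the same pathways, from lists chosen by function, had calls in both directions in the pooled comparison, where 5.05% of all tested genes were called higher and 5.33% lower. Among other replication genes, 51 measured and 44 tested, 1 was higher and 1 lower, with a median of 0.07. Lig1, the ligase of lagging strand pieces, was at 7.73 to 8.09 in GFP+ Tfh cells and 7.52 to 8.17 in GFP- Tfh cells, against 7.09 to 7.47 in the CXCR5+PD1- gate and 7.22 to 7.36 in the CXCR5-PD1- gate (0.61 ± 0.12, limma adjusted p = 0.00649). Pole2, a subunit of the leading strand polymerase, was lower, at 6.46, 5.97 and 4.95 in GFP+ Tfh cells and 5.52, 5.88 and 5.56 in GFP- Tfh cells, against 6.91, 7.62 and 7.41 in the CXCR5+PD1- gate and 7.20, 6.83 and 7.69 in the CXCR5-PD1- gate. The difference of Pole2 was -1.55 ± 0.24 (adjusted p = 0.00140) and no Tfh array reached the PD1- range.

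Of other mitosis genes, 72 measured and 30 tested, 4 (13.3%) were higher and 1 lower, with a median of 0.11, and 50 of the 72 differences were positive. Lmnb1, a nuclear lamina gene, differed by 0.64 ± 0.11, Incenp, a chromosomal passenger partner of Birc5, by 0.59 ± 0.14, Hmgb2, a chromatin protein, by 0.53 ± 0.10 and Ncapd2, a condensin subunit, by 0.40 ± 0.11 (limma adjusted p = 0.0024, 0.0159, 0.00495 and 0.0411). The Ncapd2 call held in 2 of the 12 fits that left out 1 array, those without replicate 1 of GFP+ Tfh or CXCR5+PD1- cells, with adjusted p up to 0.109. Cenpa, the centromere histone, was lower by -0.87 ± 0.16 (adjusted p = 0.00516), at 6.79 to 7.78 in GFP+ Tfh cells and 7.79 to 7.90 in GFP- Tfh cells, against 8.17 to 8.66 in the CXCR5+PD1- gate and 8.22 to 8.71 in the CXCR5-PD1- gate.

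Of other G1 and pocket protein genes, 23 measured and 20 tested, 1 was higher and 2 lower, with a median of 0.02. Myc, the growth factor-induced transcription factor, was at 8.92, 6.73 and 6.19 in GFP+ Tfh cells and 8.60, 8.34 and 8.02 in GFP- Tfh cells, against 9.55, 9.43 and 9.82 in the CXCR5+PD1- gate and 9.85, 9.54 and 10.20 in the CXCR5-PD1- gate. No Tfh array reached a PD1- array, and the difference was -1.93 ± 0.37 (limma adjusted p = 0.00545). Cdk7, of the CDK-activating kinase, was lower by -0.64 ± 0.15 (adjusted p = 0.0196) and E2f4, a repressor E2F, higher by 0.38 ± 0.11 (adjusted p = 0.0470). Of the 12 fits that left out 1 array, E2f4 was called only without GFP+ Tfh replicate 1 or 3 (adjusted p up to 0.114), and Cdk7 was lost without replicate 2 or 3 of either PD1- gate (up to 0.0547).

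Of other brakes, 28 measured and 24 tested, 1 was higher and 3 lower, with a median of 0.00. Gadd45b, a stress-induced inhibitor, differed by 0.69 ± 0.13, and Tob1, Klf2 and Atr by -0.49 ± 0.10, -0.66 ± 0.10 and -0.51 ± 0.13 (limma adjusted p = 0.00474, 0.00681, 0.00132 and 0.0253). Tob1 and Klf2 are known to hold T cells in quiescence, and Atr is the kinase of the replication stress checkpoint. The Atr call was lost without replicate 1 of either PD1- gate, GFP+ Tfh replicate 2 or GFP- Tfh replicate 3 (adjusted p up to 0.0677). Of 16 anaphase promoting complex genes, Anapc1 was lower by -0.33 ± 0.08 (adjusted p = 0.0162), with 8.08, 7.96 and 7.93 in GFP+ Tfh cells and 8.59, 8.71 and 8.75 in GFP- Tfh cells, against 8.55 to 8.74 in the CXCR5+PD1- gate and 8.63 to 8.79 in the CXCR5-PD1- gate. Only the GFP+ Tfh arrays lay apart, and the pooled call was lost without CXCR5+PD1- replicate 2 (adjusted p = 0.0515).

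**Figure D4:**
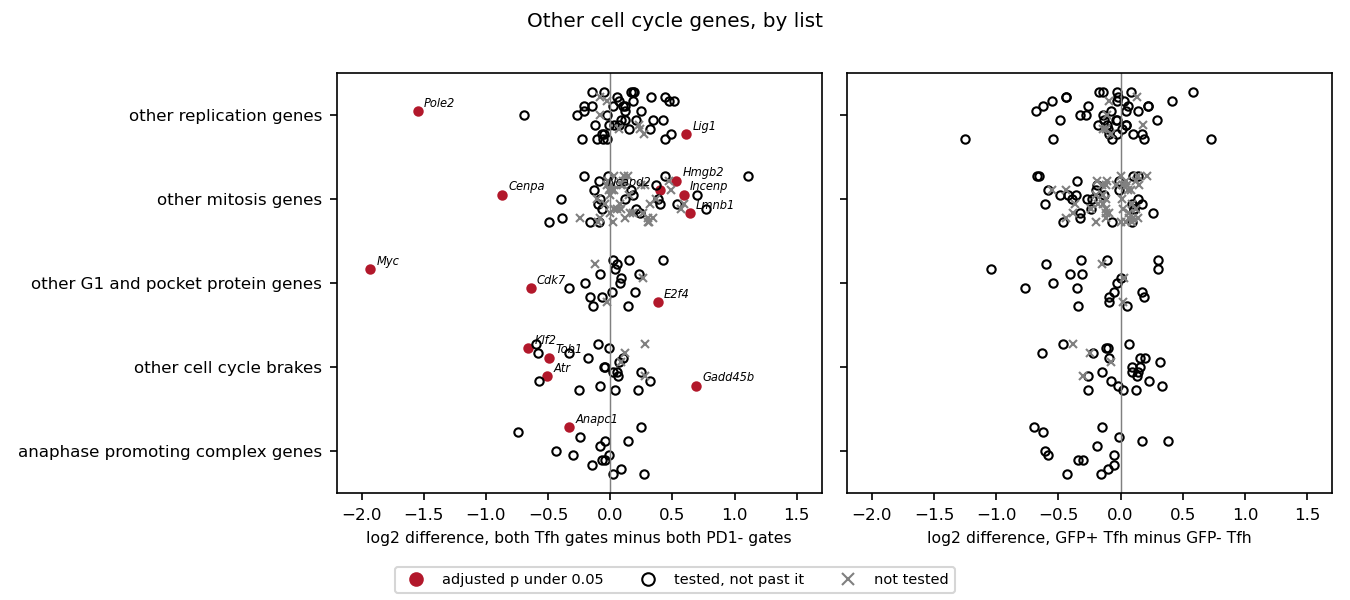
Log2 difference (horizontal axis) of the genes of 5 other cell cycle lists, for both Tfh gates minus both PD1- gates (left) and GFP+ minus GFP- Tfh (right). Filled points passed adjusted p 0.05 and are named, open points were tested and did not, and crosses were not tested. On the left Myc and Pole2 lie at -1.93 and -1.55 and Gadd45b at 0.69, and on the right no gene is filled.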

How the data were processed

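The authors deposited 1 table of log2 expression for 34760 probe sets on 12 arrays, made with RMA in oligo per the submitters' processing notes, with no version given. RMA subtracts background, equalises the arrays' distributions and summarises probes, so low signals are compressed and a shift of most genes is removed. Total RNA (RIN at least 9.2) was amplified as whole-transcript cDNA, per the labels' protocols. Probe sets with 1 gene symbol in the platform annotation (21640) were updated through RefSeq, and 1321 with several and 11799 unnamed here were not used. A gene was tested if above the array median (6.34 to 6.45) on at least 3 arrays, which left 11240 genes.

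One linear model over 4 groups (limma 3.58.1, R 4.3.3, 8 residual and 11.5 total degrees of freedom) gave 5 comparisons, adjusted by Benjamini-Hochberg at 0.05. Code was tested on simulated data. Members called, and the 2 with the smallest p in role groups without any, are given by array. Mcm4, Rrm1, Rrm2, Ccnd2 and Bub1 are also given by array, chosen after their values were seen. Pathway genes named are those past the threshold, up to 5 per list. Members and lists were chosen with earlier results of these data known. Alternatives were another filter, trend and robust moderation, array or group weights, cyclic loess or median centring, fits of the compared groups alone, replicate or sex blocks, male arrays alone, averaged probe sets and each array left out. Leaving out the GFP+ Tfh arrays was added after seeing the data. The number of arrays limits the precision.

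Whether equal replicate numbers deviate together was checked by the correlation of deviations from group means. It was above 0.1 for all 3 numbers between CXCR5+PD1- and CXCR5-PD1- arrays (0.231, 0.210 and 0.353), and below that for at least 1 number in every other pair of groups. Between GFP+ and GFP- Tfh arrays it was 0.253, 0.0411 and 0.283, and in the remaining pairs it ran from -0.0195 to 0.196. The only negative value was -0.0195. Replicate 3 was female in every group, so equal numbers share sex. What a number marks is not given in the labels.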

Additional observations from a re-analysis of the deposited data

How the results depend on the processing

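Over the members' values under all alternatives, 3247 kept direction and side of the threshold, 83 lost a call, 68 gained one, 32 moved and 0 reversed. Most of the 3247 belong to members that were not called. The main fit called 8 members in the pooled comparison, 3 in GFP- Tfh over CXCR5-PD1- and 1 in GFP+ Tfh over CXCR5-PD1-. The 83 lost calls are to be read against those calls and not against the 3247.

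Leaving out 1 array in turn gave 0 to 2 members and 3 to 237 genes in GFP+ over GFP- Tfh, 0 to 4 and 228 to 326 in GFP- Tfh over CXCR5-PD1-, 1 to 4 and 348 to 1147 in GFP+ Tfh over CXCR5-PD1-, 0 and 0 in CXCR5+PD1- over CXCR5-PD1-, and 3 to 10 and 883 to 1495 in the pooled comparison. The members' median ran from -0.15 to 0.05, 0.15 to 0.29, 0.07 to 0.22, -0.02 to 0.02 and 0.18 to 0.25 in the same order.

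With the filter removed, or set at the 70th percentile, or with arrays centred on their medians, the pooled comparison called 5 members each time. With 1 weight per array it called 15 members (12 higher, 3 lower) and 1981 genes. With GFP+ Tfh arrays left out, an alternative chosen after seeing the data, it called 10 members, 9 higher (5.87% of all genes) and 1 lower (4.04%), with a median of 0.22. The cause of these changes was not tested, beyond the fewer arrays or genes used.

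GFP- Tfh over CXCR5-PD1- called 1 member at the 70th percentile, 6 members and 791 genes with 1 weight per group, 9 and 912 with 1 weight per array, 5 and 665 with only the compared groups, and 1 and 266 on the male arrays alone, where the members' median was 0.33.

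GFP+ Tfh over CXCR5-PD1- called 2 members at the 70th percentile, 314 genes with 1 weight per group, 7 members and 1411 genes with 1 weight per array, 3 members with cyclic loess, 255 genes with only the compared groups, 3 members with sex as a block, 2 members and 392 genes on the male arrays alone, and 2 members with probe sets averaged per gene.

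GFP+ over GFP- Tfh called 3 genes with 1 weight per group, 95 with 1 weight per array, and 0 with only the compared groups or the male arrays, and 0 members in each. In CXCR5+PD1- over CXCR5-PD1- the members' median was -0.04 with cyclic loess.

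With the replicate number as a block, GFP+ Tfh over CXCR5-PD1- called 2 members, Top2a joining Mcm6. In CXCR5+PD1- over CXCR5-PD1-, where the correlation of equal numbers was above 0.1 for all 3, the block left 0 members and 0 genes called. Whether the numbers pair the samples is not given. The spread of the GFP+ Tfh arrays and 3 arrays per gate limit what can be seen, and members near or below the array median have compressed differences.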
